A study of Mus musculus with 48 samples.

Results

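Ubiquitin ligases pick the proteins that a cell tags with ubiquitin, and 193 genes of 5 families of such ligases and adaptors are described here in mouse skeletal muscle. They are all genes of the deposited count table whose symbol begins with Fbxl, Fbxo, Fbxw, Trim, Rnf, Asb or Klhl followed by a digit, out of 14125 genes in the table. The atrophy ligases Trim63, Trim54, Fbxo32 and Fbxo31 were left out by name. The families held 48 F-box genes (15 Fbxl, 25 Fbxo and 8 Fbxw), 36 Trim, 64 Rnf, 17 Asb and 28 Klhl genes. The rule rests on names alone and uses no measured value, but it was set with earlier results of these data known.

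Ubiquitin is passed from an activating enzyme (E1) to a conjugating enzyme (E2) and then, with the help of a ligase (E3), to a substrate, which the proteasome may then degrade. Most Trim and Rnf proteins carry a RING domain and act as ligases themselves. F-box, Asb and Klhl proteins are adaptors: F-box proteins bring substrates to cullin 1 through Skp1, Asb proteins to cullin 5 through elongins, and Klhl proteins to cullin 3 through a BTB domain. In muscle, ligases of these families are known for turnover of sarcomere proteins and of insulin signalling proteins, and glucocorticoids are known to raise several atrophy ligases.

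RNA came from mixed gastrocnemius, a hindlimb muscle, of male C57BL6J mice with no genetic change named in the labels, and ages were not given. EtOH_CON mice (n = 10) drank water with 1% ethanol, the vehicle, and ate control food. EtOH_ATGLi mice (n = 10) drank the same vehicle and ate food with 571 mg/kg atglistatin, which inhibits adipose triglyceride lipase (ATGL), the enzyme that starts triglyceride breakdown. Cort_CON mice (n = 14) drank water with 100 ug/ml corticosterone, the main glucocorticoid of mice, and ate control food, while Cort_ATGLi mice (n = 14) had corticosterone water and the atglistatin food. Treatment lasted 2 weeks, and whether the corticosterone water held ethanol too is not recorded in the sources used here. By the labels' disease state, 9 of the 14 Cort_CON mice were diabetic and 5 were not, and all mice of the other groups were nondiabetic, so the Cort_CON group mixes both states. Each library was taken as 1 mouse, which the labels do not state, so p-values measure the spread between these libraries.

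The 48 libraries held 10453888 to 24034481 counts, made with a QuantSeq kit that reads the 3′ ends of transcripts. Levels are given as CPM, the count scaled to the library total, which are not scaled by gene length, so levels of different genes are not compared. Differences are log2 fold changes from edgeR's quasi-likelihood test over 12592 genes, with standard errors (SE) and Benjamini-Hochberg adjusted p-values, and rose or fell below means an adjusted p under 0.05. Of the 193 members, 186 had enough counts to be tested, and Fbxl2, Fbxo5, Trim72, Asb17, Klhl34, Klhl4 and Klhl42 did not. Library p01 of EtOH_CON correlated least with its own group over all genes (median r 0.9517), followed by p41 of Cort_ATGLi (0.9569) and p45 of Cort_CON (0.9624). Some of the values that rest on these libraries are given with and without them. The summed level of 8 muscle fibre markers was 85800 to 108000 CPM in EtOH_CON and 89300 to 108000 CPM in Cort_CON, so the libraries carried the markers of the labelled tissue.

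The promoters of the genes with the largest changes under corticosterone on control food, 4 that rose and 2 that fell among members that averaged 5 CPM or more and were found in the promoter table, are shown first, since glucocorticoid-responsive genes are often described by the DNA elements near their starts. Rnf150 fell more than Fbxw7 but was not matched in that table, so Fbxw7 is shown in its place. Each runs from 250 bases before to 50 bases after a RefSeq start site on GRCm38.p6, 5′ to 3′ on the gene's strand, and for genes with several starts the one nearest the annotated gene start is shown. Capitals mark the 6-base glucocorticoid receptor motif AGAACA or its reverse complement TGTTCT.
Asb11, chrX:164436744-164437043, plus strand: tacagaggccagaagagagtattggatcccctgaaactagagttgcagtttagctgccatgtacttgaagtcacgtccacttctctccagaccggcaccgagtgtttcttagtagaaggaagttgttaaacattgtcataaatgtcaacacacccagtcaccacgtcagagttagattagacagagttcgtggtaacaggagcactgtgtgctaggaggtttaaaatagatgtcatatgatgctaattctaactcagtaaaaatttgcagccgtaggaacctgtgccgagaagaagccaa
Asb4, chr6:5383136-5383435, plus strand: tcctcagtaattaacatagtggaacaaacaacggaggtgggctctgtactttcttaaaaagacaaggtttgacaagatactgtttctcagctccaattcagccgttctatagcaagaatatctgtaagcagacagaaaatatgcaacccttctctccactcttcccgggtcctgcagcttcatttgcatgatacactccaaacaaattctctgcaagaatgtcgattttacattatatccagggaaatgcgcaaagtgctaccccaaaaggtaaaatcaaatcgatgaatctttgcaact
Klhl2, chr8:64849875-64850174, minus strand: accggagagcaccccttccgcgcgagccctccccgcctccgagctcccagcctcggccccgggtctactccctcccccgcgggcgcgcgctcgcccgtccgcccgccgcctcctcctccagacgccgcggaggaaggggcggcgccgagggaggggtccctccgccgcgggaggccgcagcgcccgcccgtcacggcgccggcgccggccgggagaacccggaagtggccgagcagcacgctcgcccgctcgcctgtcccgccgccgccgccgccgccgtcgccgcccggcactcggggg
Klhl7, chr5:24100340-24100639, plus strand: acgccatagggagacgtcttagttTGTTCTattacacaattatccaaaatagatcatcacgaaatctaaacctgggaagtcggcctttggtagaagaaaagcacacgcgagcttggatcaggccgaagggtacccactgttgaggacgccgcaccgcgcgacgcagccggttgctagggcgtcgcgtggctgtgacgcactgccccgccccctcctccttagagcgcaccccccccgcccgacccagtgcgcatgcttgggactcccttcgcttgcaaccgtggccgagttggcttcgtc
Klhl23, chr2:69821691-69821990, plus strand: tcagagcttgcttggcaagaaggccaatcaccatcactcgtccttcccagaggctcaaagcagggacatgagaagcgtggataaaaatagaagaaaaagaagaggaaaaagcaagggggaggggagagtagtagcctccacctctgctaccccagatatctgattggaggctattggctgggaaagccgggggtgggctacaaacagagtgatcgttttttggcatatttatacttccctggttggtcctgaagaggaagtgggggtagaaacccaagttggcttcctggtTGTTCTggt
Fbxw7, chr3:84815327-84815626, plus strand: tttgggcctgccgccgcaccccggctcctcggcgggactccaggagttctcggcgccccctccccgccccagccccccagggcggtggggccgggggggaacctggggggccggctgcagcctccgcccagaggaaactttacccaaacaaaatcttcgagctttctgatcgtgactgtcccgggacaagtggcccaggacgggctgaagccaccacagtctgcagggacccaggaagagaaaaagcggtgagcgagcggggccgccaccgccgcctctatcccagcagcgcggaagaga

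The sequences were matched by symbol, and 154 of the 193 members had at least 1 promoter in the RefSeq table. A full receptor element, AGAACA and TGTTCT separated by any 3 bases, was in 0 of the 210 member promoters and in 3 of all 32851 promoters (0.00913%). The single receptor motif, searched on both strands and counted within the full element too, was in 27 of the 210 member promoters (12.9%) and in 19.0% of all promoters. A FoxO element, TGTTTAC on either strand, was in 6 of the 210 member promoters (2.86%) and in 3.65% of all. Among the sequences printed, only those of Klhl7 and Klhl23 hold the receptor motif, the former in a gene that rose and the latter in a gene that fell. Muscle-linked members had a median promoter GC content of 53.0% (23 genes with a promoter), against 60.7% for the 131 other members and 52.7% for all promoters. These matches describe letters in 300-base windows and say nothing on binding.

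Corticosterone on control food changed members of all 7 name groups, and more of them fell than rose. Comparing Cort_CON with EtOH_CON, 58 of 186 members passed the test (31.2%), 23 higher and 35 lower, where 38.4% of all genes tested passed (18.9% higher and 19.5% lower). The members' share was under that of all genes. Among members with a mean of at least 5 CPM, 45 of 127 passed (35.4%), against 43.5% of all such genes. The median log2 change was -0.09 over the members and -0.0011 over all genes tested. At least 1.5-fold changes were seen in 5 members that rose and 18 that fell. Of all 12592 genes, 16.8% were past that size and the threshold, 756 higher and 1364 lower, so falls outnumbered rises there too. The split of calls depends on the scaling: with library totals as the only scaling, which moved the median log2 change of all genes to -0.11, 81 members passed and 18.5% of them were higher, against 39.7% of the 58. Of the 58 calls, 50 were kept under that scaling and 0 changed sign. The share and split of all genes that passed under it are not reported here, so the 81 cannot be set against all genes. With Cort_CON limited to the 5 nondiabetic mice, 38 members passed, 35 of them among the 58, and 22.7% of all genes tested passed. Of the members named by the rules given under processing, Asb12, Asb14, Asb16, Klhl41, Fbxo40, Fbxw2, Trim24, Trim55, Rnf187 and Rnf113a2 then missed the threshold. Their adjusted p was 0.0535 (Asb14) to 0.71 (Asb12), and the direction was the same. Members named below for other reasons are not covered by this list. Only 1 Trim gene, Trim35, was then higher, so Trim56 and Trim67 did not pass either.

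By name group, 14.3% of Fbxl, 33.3% of Fbxo, 50% of Fbxw, 40% of Trim, 20.3% of Rnf, 43.8% of Asb and 40% of Klhl genes tested passed on control food, beside the 38.4% of all genes. The numbers in each direction depend on the scaling. With library totals only, 0 Fbxl genes were higher and 3 lower, and the numbers were 0 and 8 for Fbxo, 0 and 3 for Fbxw, 2 and 14 for Trim, 6 and 21 for Rnf, 2 and 6 for Asb and 5 and 11 for Klhl genes. With nondiabetic Cort_CON mice alone they were 0 and 2 for Fbxl, 2 and 2 for Fbxo, 1 and 2 for Fbxw, 1 and 8 for Trim, 5 and 4 for Rnf, 2 and 2 for Asb and 4 and 3 for Klhl genes. No difference between name groups was tested, and the share of all genes that passed with library totals only is not reported here. The exons of 25 of the 193 members overlap a gene on the other strand and those of 4 a gene on the same strand, so their counts may hold reads of those genes.

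**Figure D1:**
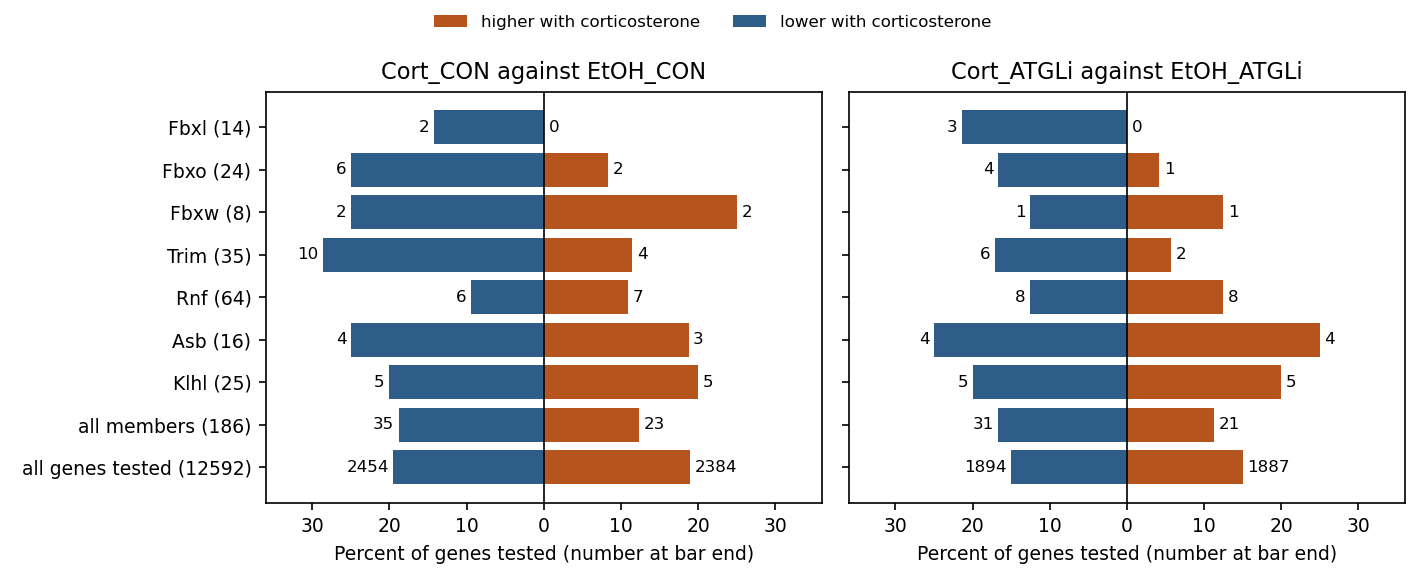
Percent of the genes tested (x axis) that were higher (right, orange) or lower (left, blue) with corticosterone in each name group, with the number of genes at the bar end and the number tested in parentheses. On control food (left) Trim genes had 10 lower and 4 higher, and on atglistatin food (right) Klhl genes had 5 in each direction.

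Among the Asb adaptors, which are studied mostly in muscle, 3 of 16 tested rose and 4 fell. Asb11 had the smallest p of all 186 members. Its CPM was 71.1, 84.9 and 114 (lowest, median and highest) in EtOH_CON and 127, 160 and 249 in Cort_CON, so that every Cort_CON library lay above every EtOH_CON library. The log2 change was 1.04 (SE 0.0806, adjusted p = 3.73e-16), a 2.06-fold difference. The gene lies at chrX:164436994-164459170 on the plus strand of GRCm38. Asb4, known from work on blood vessel formation, had 19.2, 21.1 and 27.2 CPM in EtOH_CON and 28.7, 36.3 and 57.9 CPM in Cort_CON, again without overlap. Its log2 change was 0.93 (SE 0.102, adjusted p = 5.77e-11). In this comparison 10 members (5.38%) had groups that did not overlap, 2 higher and 8 lower, and 4.63% of all genes did.

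Asb12 rose by less, from a median of 32.9 to 34.7 CPM, with overlapping groups (log2 change 0.27, SE 0.0965, adjusted p = 0.020). Without library p45 of Cort_CON its log2 change was 0.19 and missed the threshold (adjusted p = 0.0737). Asb10 fell from 103, 121 and 136 CPM to 33.5, 62.0 and 104 CPM. The groups met only at the edge, and all 14 Cort_CON libraries were under the EtOH_CON mean (log2 change -0.80, SE 0.141, adjusted p = 9.76e-06). Asb14 fell from 84.0, 91.6 and 111 CPM to 39.9, 56.7 and 80.3 CPM without overlap (log2 change -0.55, SE 0.112, adjusted p = 7.9e-05). Asb8 fell by 0.26 (SE 0.0584) and Asb16 by 0.19 (SE 0.0733, adjusted p = 0.0355) on the log2 scale. The Asb16 call was lost when p01 or p11 of EtOH_CON, or p27, p28, p30 or p46 of Cort_CON, was left out, with a highest adjusted p of 0.104. Asb2, which targets filamins in muscle, and Asb5, known from satellite cells, did not pass, with log2 changes of 0.14 (SE 0.104) and 0.18 (SE 0.105).

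Of the 25 Klhl adaptors tested, 5 rose and 5 fell, an even split that became 5 and 11 with library totals only. Klhl38, a striated muscle gene, had 0.893, 1.71 and 2.95 CPM in EtOH_CON and 2.03, 4.15 and 7.39 CPM in Cort_CON. The groups overlapped, but all 14 Cort_CON libraries were above the EtOH_CON mean (log2 change 1.495, SE 0.212, adjusted p = 5.93e-08). Klhl2, which binds actin and directs WNK kinases to degradation, went from 2.92, 4.81 and 7.41 CPM to 4.90, 8.51 and 12.2 CPM, and 13 of 14 libraries were above the EtOH_CON mean (log2 change 0.89, SE 0.153, adjusted p = 3.89e-06). Klhl7 rose from a median of 17.2 to 23.3 CPM (log2 change 0.58, SE 0.0852). Klhl24, known for the turnover of keratin and other intermediate filaments, rose from a median of 39.1 to 50.1 CPM (log2 change 0.51, SE 0.111). In fits that each left out 1 library, its log2 change was 0.421 to 0.542 and passed throughout.

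Klhl41, a nemaline myopathy gene whose protein stabilises thin filament proteins, ranged from 316 to 409 CPM (median 360) in EtOH_CON and from 324 to 575 CPM (median 395) in Cort_CON. The groups overlapped widely, and the log2 change was 0.37 (SE 0.0883, adjusted p = 0.000684). With nondiabetic Cort_CON mice alone it was 0.21 and missed the threshold (adjusted p = 0.140). Its relative Klhl40, another nemaline myopathy gene, did not pass (log2 change 0.22, SE 0.174, adjusted p = 0.322).

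The strongest fall among tested members with a mean of at least 5 CPM was that of Klhl23. It had 14.7, 19.4 and 22.5 CPM in EtOH_CON and 3.59, 6.02 and 12.4 CPM in Cort_CON. Every Cort_CON library lay below every EtOH_CON library, with a log2 change of -1.345 (SE 0.145, adjusted p = 5.45e-11), which is 0.394 times the vehicle level. The gene lies at chr2:69821944-69836651 on the plus strand. Klhl8 fell from 24.2, 31.9 and 46.6 CPM to 15.3, 18 and 21.9 CPM, also without overlap (log2 change -0.73, SE 0.0966, adjusted p = 1.11e-08). Klhl13, a partner of cullin 3 in cell division, fell by 0.73 (SE 0.155).

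**Figure D2:**
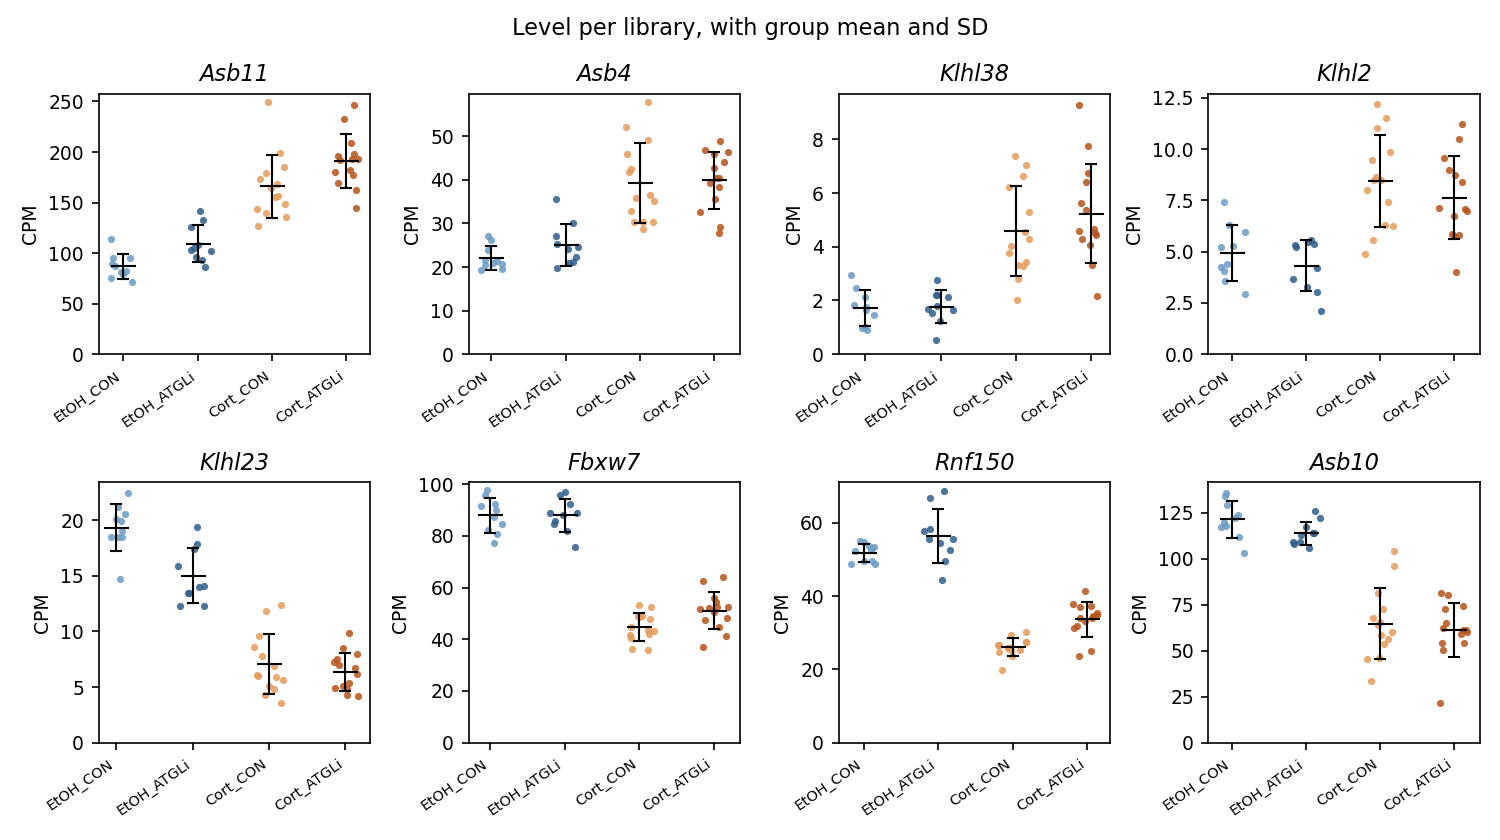
CPM (y axis, from 0) of 8 members in each library, with 1 point per library and the group mean and SD in black. Asb11, Asb4, Klhl38 and Klhl2 are higher in both corticosterone groups, and Klhl23, Fbxw7, Rnf150 and Asb10 are lower.

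Of 46 F-box genes tested, 4 rose and 10 fell (30.4% in all, where 38.4% of all genes passed), and 0 were higher with library totals only. Fbxw7, whose protein directs cyclin E, Myc, Notch and the lipid regulators SREBP to degradation, had the clearest fall. It had 77.3, 88.6 and 97.8 CPM in EtOH_CON and 35.8, 44.2 and 53.4 CPM in Cort_CON. The 2 ranges lay far apart, and the log2 change was -0.86 (SE 0.0747, adjusted p = 2.65e-14), or 0.551 times the vehicle level. The gene lies at chr3:84815268-84979198 on the plus strand. Fbxo3 fell from 65.0, 67.2 and 88.5 CPM to 41.3, 49.4 and 59.9 CPM, without overlap (log2 change -0.35, SE 0.0649, adjusted p = 1.19e-05). Fbxo40, a muscle ligase that targets the insulin receptor substrate Irs1, fell by 0.17 (SE 0.062, adjusted p = 0.0273), and fitted on these 2 groups alone it missed the threshold (adjusted p = 0.0518).

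Fbxl22, known at the cardiac Z-disc, fell from a median of 2.42 to 1.47 CPM (log2 change -0.68, SE 0.239, adjusted p = 0.0196). At this level its groups overlapped widely, and its exons overlap those of Herc1 on the other strand. Fbxw2 rose slightly, from a median of 44.1 to 48.6 CPM (log2 change 0.24, SE 0.0641), and missed the threshold with library totals as the only scaling (log2 change 0.13, adjusted p = 0.0785). Fbxw11, the second of the beta-TrCP proteins, rose by 0.24 (SE 0.0738). Fbxl5, an iron sensor, and Fbxl17, which clears faulty dimers of BTB proteins, did not pass, with log2 changes of -0.13 (SE 0.104) and -0.066 (SE 0.0789). The atrophy-linked Fbxo30 and Fbxo21 did not pass either, with log2 changes of -0.14 (SE 0.110) and 0.11 (SE 0.124).

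Of 35 Trim ligases tested, 10 fell and 4 rose. Trim16, known from the clearing of damaged lysosomes, had 15.4, 17.3 and 21 CPM in EtOH_CON and 5.48, 9.98 and 12.9 CPM in Cort_CON without overlap (log2 change -0.74, SE 0.105, adjusted p = 5.34e-08). Trim7, which binds glycogenin, the protein that primes glycogen, fell from 14.5, 16.3 and 21.1 CPM to 5.74, 9.64 and 12.3 CPM, again without overlap (log2 change -0.76, SE 0.121, adjusted p = 7.4e-07). Its exons overlap those of Gm12184 on the other strand, and the labels do not say whether strand was used in counting. Trim8, a regulator of cytokine signalling, fell from a median of 18.9 to 9.88 CPM with overlap (log2 change -0.72, SE 0.137). Trim24, a cofactor of nuclear receptors, fell by 0.28 (SE 0.0768) on the log2 scale, and by 0.07 with an adjusted p of 0.624 against nondiabetic Cort_CON mice alone.

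Trim35 rose from 104, 127 and 159 CPM to 131, 155 and 213 CPM. The groups overlapped, and all 14 Cort_CON libraries were above the EtOH_CON mean (log2 change 0.43, SE 0.0663, adjusted p = 4.47e-07). Trim67 had the largest fold among all members, at 0 to 0.862 CPM in EtOH_CON and 0.161 to 2.36 CPM in Cort_CON (log2 change 1.58, SE 0.393, adjusted p = 0.000961), and was singled out after its values were seen. It lies under 5 CPM, and the size of its fold is loosely fixed. With nondiabetic Cort_CON mice alone it did not pass. Trim55 (MuRF2), a sarcomere ligase, fell by 0.39 (SE 0.160) with an adjusted p of 0.0483, a call that was lost in 13 of 24 fits that left out 1 library, with a highest adjusted p of 0.115. The libraries were p04, p09, p10, p11 and p12 of EtOH_CON and p28, p29, p32, p33, p34, p35, p37 and p45 of Cort_CON. Trim32, a limb girdle muscular dystrophy gene, did not pass (log2 change 0.05, SE 0.132).

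Of 64 Rnf genes tested, 7 rose and 6 fell (20.3%, where 38.4% of all genes passed), numbers that became 6 and 21 with library totals only. Rnf150, a predicted membrane ligase, had 48.8, 52.5 and 54.9 CPM in EtOH_CON and 19.9, 25.8 and 30.2 CPM in Cort_CON. Its ranges lay wholly apart, and the log2 change was -0.88 (SE 0.0763, adjusted p = 2.42e-14), or 0.544 times the vehicle level. The gene lies at chr8:82863356-83091268 on the plus strand. Rnf10 rose from 72.3, 79.6 and 99.1 CPM to 83.1, 101 and 134 CPM (log2 change 0.48, SE 0.0694, adjusted p = 7.85e-08). Rnf126, which acts with Bag6 on misplaced membrane proteins, rose from a median of 43.5 to 56.6 CPM (log2 change 0.48, SE 0.106). Rnf187, a coactivator of AP-1, rose by 0.28 (SE 0.067), and Rnf31, the catalytic part of the linear ubiquitin ligase, by 0.55 (SE 0.126). Rnf31 shares exonic sequence with Irf9 on the same strand, so some of its counts may belong to that gene. Rnf113a2 rose by 0.42 (SE 0.108), though it has a near-identical copy, Rnf113a1, with which reads could be shared. Rnf11 and Rnf123 did not pass (log2 changes of -0.07, SE 0.0756, and -0.10, SE 0.0629).

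On atglistatin food, corticosterone changed a similar number of members. In Cort_ATGLi against EtOH_ATGLi, 52 of 186 members passed (28%), 21 higher and 31 lower, where 30% of all genes tested passed, 15% in each direction. Among members with a mean of at least 5 CPM, 43 of 127 passed (33.9%), against 35% of all such genes. With library totals as the only scaling, 59 passed, 28.8% of them higher, against 40.4% of the 52. The share of all genes under that scaling is not reported here either. At least 1.5-fold changes were seen in 7 members that rose and 8 that fell, where 12.2% of all genes passed at that size, 596 higher and 938 lower. Groups did not overlap for 6 members (3.23%), 1 higher and 5 lower, and for 2.97% of all genes. These 2 corticosterone comparisons share no library. Of the 23 members that rose on control food, 17 also rose on atglistatin food (73.9%), which is 81.0% of the 21 that rose there. Of the 35 that fell, 22 fell on both (62.9%), which is 71.0% of the 31. Over all genes the same shares were 65.2% and 82.4% for rises and 62.7% and 81.2% for falls. In opposite directions 0 members passed, and 0 of all genes did.

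Asb11 had 85.8, 104 and 142 CPM in EtOH_ATGLi and 145, 193 and 247 CPM in Cort_ATGLi, the only member higher without overlap here (log2 change 0.85, SE 0.0800, adjusted p = 7.82e-13). Asb4 rose from a median of 24.3 to 40.4 CPM with some overlap (log2 change 0.72, SE 0.102). Klhl38 rose from a median of 1.73 to 4.62 CPM (log2 change 1.60, SE 0.212), and Klhl2 from 4.70 to 7.10 CPM (log2 change 0.86, SE 0.155). Klhl7 and Rnf126 rose by 0.54 (SE 0.0847) and 0.64 (SE 0.107) on the log2 scale. Klhl41 rose by 0.31 (SE 0.0882), Asb12 by 0.48 (SE 0.0968), and Rnf10, Rnf187 and Rnf113a2 by 0.38, 0.26 and 0.45. Each of these genes thus rose on both foods.

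The 5 members lower without overlap on atglistatin food were Klhl23, Fbxw7, Rnf150, Asb10 and Fbxo3. Klhl23 went from 12.3, 14.1 and 19.4 CPM to 4.16, 6.43 and 9.82 CPM (log2 change -1.18, SE 0.147, adjusted p = 6.26e-09). Fbxw7 went from 75.6, 88.5 and 97.2 CPM to 37.2, 51.9 and 64.2 CPM (log2 change -0.73, SE 0.0747, adjusted p = 1.43e-11). Rnf150 went from 44.4, 55.6 and 68.7 CPM to 23.7, 34.3 and 41.5 CPM (log2 change -0.69, SE 0.076, adjusted p = 1.49e-10). No Cort_ATGLi library of these 3 genes reached the range of the vehicle group. Asb10 went from 106, 113 and 126 CPM to 21.8, 61.2 and 81.1 CPM (log2 change -0.83, SE 0.141), and Fbxo3 from 60.2, 66.6 and 73.4 CPM to 41.5, 48.9 and 55.9 CPM (log2 change -0.39, SE 0.065). Trim7, Klhl8, Asb14 and Trim8 also fell, with log2 changes of -0.69, -0.55, -0.44 and -0.43. Fbxl22 fell by 0.78 (SE 0.245), and without p12 of EtOH_ATGLi, which had 4.27 CPM, by 0.61 with an adjusted p of 0.0567.

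**Figure D3:**
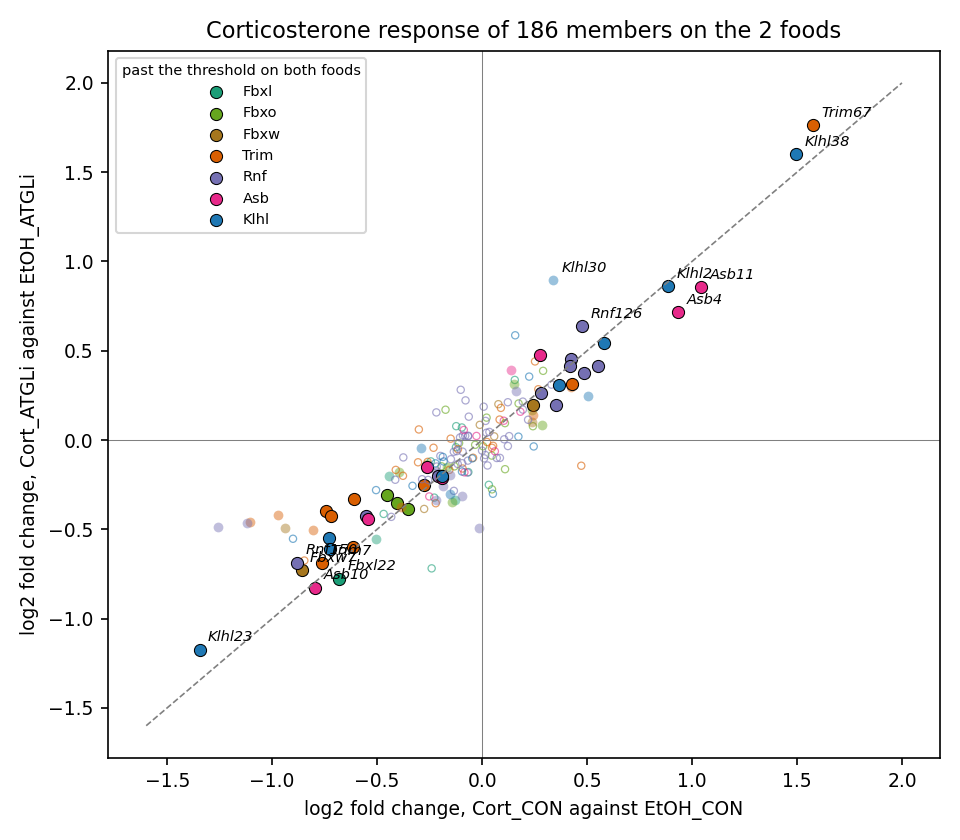
Log2 fold change with corticosterone on control food (x axis) and on atglistatin food (y axis) for the 186 members tested, coloured by name group. Outlined filled points passed on both foods, pale filled points on 1 food and open points on neither, and the dashed line marks equal change. The members that passed on both foods lie in the upper right and lower left corners.

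Some of the 186 members passed on 1 food only, 6 higher and 13 lower on control food alone and 4 higher and 9 lower on atglistatin food alone. Of all 12592 genes tested, 829 were higher and 916 lower on control food alone, and 332 and 356 on atglistatin food alone. Klhl24 passed on control food alone, with a log2 change of 0.25 (SE 0.110, adjusted p = 0.0839) on atglistatin food. Asb2, Rnf123, Klhl31, Fbxo30 and Fbxl5 passed on atglistatin food alone, with log2 changes there of 0.39 (SE 0.105), -0.32 (SE 0.0627), -0.30 (SE 0.0791), -0.35 (SE 0.108) and -0.34 (SE 0.104). Rnf123, part of the ligase for the cell cycle inhibitor p27, shares exonic sequence with Gmppb on the other strand. Klhl31, needed for sarcomere integrity, fell from a median of 557 to 431 CPM. Klhl30 rose from 28.8, 34.1 and 46.5 CPM to 28.8, 52.1 and 274 CPM (log2 change 0.90, SE 0.216, adjusted p = 0.00116). The highest value was that of library p41, and without it the log2 change was 0.58 and still passed.

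Whether the response differs between foods was tested by the interaction, in which 0 of 186 members passed and 5 of 12592 genes did (0.0397%). With edgeR, 2 of 186 members had an unadjusted p under 0.05, where 695 of all 12592 genes tested did. The 2 members were Rnf123 (log2 difference -0.22, 95% interval -0.393 to -0.0433) and Trim16 (0.35, interval 0.0537 to 0.638). DESeq2 and limma voom also called 0 members, with 3 and 4 at an unadjusted p under 0.05. The interval of the difference was -0.406 to 0.0277 for Asb11, -0.0788 to 0.339 for Fbxw7, -0.021 to 0.405 for Rnf150, -0.239 to 0.578 for Klhl23 and -0.475 to 0.685 for Klhl38. Differences of the sizes within these intervals are not excluded, and the members called on 1 food only are not shown to respond differently.

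The muscle-linked members, a list of genes known from muscle structure, disease or wasting, had 24 tested genes across the 5 families. On control food 5 rose and 8 fell (54.2%), and on atglistatin food 7 rose and 9 fell (66.7%), against the 38.4% and 30% of all genes given above. With library totals as the only scaling the counts were 4 and 11, and 7 and 12, and the share of all genes then is not reported here. With nondiabetic Cort_CON mice alone the counts were 3 and 4, and the share of all genes in that setting is given above. The median log2 change of the list was -0.025 on control food and -0.15 on atglistatin food. Asb5, Asb15, Asb18, Trim32, Fbxo21 and Klhl40 passed on neither food. The list was made with earlier results of these data known, and its share is a description.

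**Figure D4:**
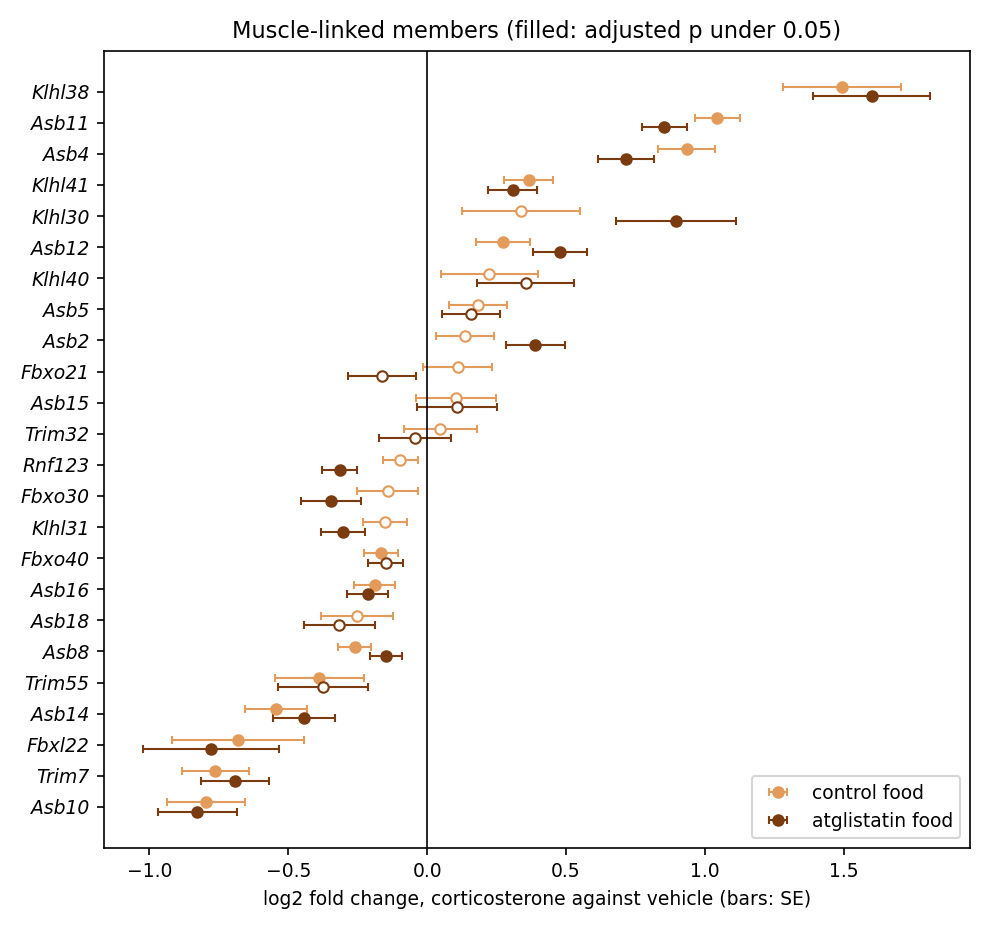
Log2 fold change with corticosterone (x axis, bars are SE) for the 24 muscle-linked members tested, on control food (light) and atglistatin food (dark), filled where the adjusted p was under 0.05. Klhl38 lies farthest to the right on both foods, followed by Asb11 and Asb4 on control food and by Klhl30 and Asb11 on atglistatin food, and Asb10, Trim7 and Fbxl22 lie farthest to the left on both.

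Other lists of members by role had called shares of 28.6% (interferon-linked), 30.8% (clock and metabolites) and 23.1% (chromatin and DNA repair) on control food, under the 38.4% of all genes, and of 21.4%, 30.8% and 30.8% on atglistatin food, where all genes had 30%. Of 14 interferon-linked Trim and Rnf genes, Trim56 rose and Trim12c, Trim30d and Trim34a fell on control food, and on atglistatin food Trim12c, Rnf114 and Rnf135 fell. Trim56 did not pass with nondiabetic Cort_CON mice alone. Trim12c, Trim30d and Trim34a have near-identical copies, so their counts are uncertain, and Rnf114 overlaps Spata2 on the other strand. Of 13 members in a list of clock and metabolic sensor genes, Klhl2, Klhl24 and Fbxw11 rose and Fbxw7 fell on control food. On atglistatin food Klhl2 rose and Fbxw7, Fbxl5 and Rnf139 fell. The list is a loose one, and Klhl2 and Klhl24 are described above by other roles. Rnf139 overlaps Tatdn1 on the other strand. Of 13 members of chromatin and DNA repair, Rnf169 rose and Rnf8 and Trim24 fell on both foods, and Rnf40, which helps to ubiquitinate histone H2B, rose on atglistatin food.

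Genes of the machinery these adaptors work with passed at shares near or under that of all genes, except ubiquitin, E1 and E2 genes on control food. The shares on control food were 35.7% for cullin-RING core genes, 28.6% for genes of the cullin modifier Nedd8 and 51.6% for ubiquitin, E1 and E2 genes, beside 38.4% of all genes, and on atglistatin food 21.4%, 23.8% and 32.3%, beside 30%. Of 14 cullin-RING core genes tested, 4 rose and 1 fell on control food: Rbx1, the RING partner of cullins (log2 change 0.33, SE 0.0854), Ddb1 (0.20, SE 0.079), Skp1a (0.20, SE 0.064) and Cul1 (0.17, SE 0.0631) rose, and Cand2 fell (-0.34, SE 0.0802). In CPM, scaled by library totals only, the means in EtOH_CON and Cort_CON were close for the smaller rises. They were 67.29 and 70.08 for Cul1, 122.6 and 130.5 for Ddb1, and 150 and 159.2 for Skp1a. Whether the calls of these lists hold under that scaling is not reported here. On atglistatin food Ddb1, Skp1a and Cul1 rose and 0 fell. Of 21 genes that attach or remove the cullin modifier Nedd8, 6 rose and 0 fell on control food, led by Cops3 (0.47, SE 0.0736) and Cops4 (0.39, SE 0.0739) of the COP9 signalosome, and 5 rose on atglistatin food. Of 31 ubiquitin, E1 and E2 genes, 12 rose and 4 fell on control food, and 7 rose and 3 fell on atglistatin food. Ube2j1, an E2 of the endoplasmic reticulum, rose by 0.89 (SE 0.0661) and 0.74 (SE 0.0656), and Ube2g2, another E2, by 0.64 (SE 0.0741) and 0.46 (SE 0.0738). The 4 atrophy ligases left out by name rose on both foods, Trim63 (MuRF1) by 1.97 (SE 0.243) and Fbxo32 (atrogin-1) by 1.03 (SE 0.174) on control food.

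Markers of other cell types moved with corticosterone too. On control food 9 of 10 fibro-adipogenic progenitor markers were lower and 0 higher, and their sum was 1870 to 2690 CPM in EtOH_CON and 742 to 1780 CPM in Cort_CON. Of 7 tendon markers, 5 were lower and 1 higher (sums of 239 to 529 and 76.5 to 239 CPM). Of 12 macrophage markers, 7 were lower and 1 higher (107 to 203 and 81.1 to 157 CPM), and of 10 endothelial markers 5 were lower and 1 higher (193 to 259 and 110 to 290 CPM). Of 8 smooth muscle and pericyte markers 4 were lower and 1, Des, was higher. Their sum was higher (1530 to 2790 and 3220 to 6040 CPM), but most of it was Des, with means of 1879 and 3846 CPM. The next largest, Rgs5, had means of 196 and 158.5 CPM, so the sum does not describe the list. Of 8 Schwann and nerve markers 3 were lower and 0 higher (80.9 to 389 and 49.5 to 183 CPM). Erythroid markers went the other way, with 4 of 5 higher and 0 lower (744 to 1110 and 726 to 1710 CPM). Of 9 adipocyte markers 1 was higher and 2 lower, and of 5 satellite cell markers 2 were higher and 2 lower. The lymphocyte marker Ighm, the 1 of 8 tested, fell (24.4 to 123 and 0.892 to 42 CPM). On atglistatin food 10 of 10 progenitor and 6 of 7 tendon markers were lower, and 1 tendon marker was higher. Of 12 macrophage and of 10 endothelial markers, 5 were lower and 1 higher in each list. Of 8 smooth muscle and pericyte markers 2 were lower and 1 higher, and 0 of 8 Schwann and nerve markers passed. Of 5 erythroid markers 1 was higher, of 9 adipocyte markers 2, and 0 of either were lower. Of 5 satellite cell markers 2 were higher and 2 lower, and Ighm fell. In whole muscle, fewer cells of a type and less RNA per cell cannot be told apart. The part of these cell types in the falls of Klhl23, Fbxw7, Rnf150 and the other members was not tested.

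Atglistatin food changed 2 members under corticosterone and 0 under vehicle. In Cort_ATGLi against Cort_CON, 2 of 186 members passed, where 1.60% of all genes did (201 genes). Trim35 had 131, 155 and 213 CPM in Cort_CON and 96.9, 137 and 192 CPM in Cort_ATGLi. The groups overlapped for most of their range, and 12 of 14 Cort_ATGLi libraries were under the Cort_CON mean (log2 change -0.28, SE 0.0600, adjusted p = 0.00538). With library totals as the only scaling it was -0.21 and missed the threshold (adjusted p = 0.116). Rnf150 was higher with atglistatin, at 23.7, 34.3 and 41.5 CPM against 19.9, 25.8 and 30.2 CPM, and 12 of 14 libraries were above the Cort_CON mean (log2 change 0.31, SE 0.0709, adjusted p = 0.0121). It missed the threshold in a fit of these 2 groups alone (adjusted p = 0.0556) and against nondiabetic Cort_CON mice alone (0.143). Since the diabetic mice were all in Cort_CON, diet and disease state cannot be told apart in the full comparison. Without p41 of Cort_ATGLi, 5 members passed in place of 2.

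In EtOH_ATGLi against EtOH_CON, 0 of 186 members passed with edgeR, where 0.0238% of all genes did (3 genes). An unadjusted p under 0.05 was seen in 10 of 186 members and in 839 of all 12592 genes tested. DESeq2 called 2 members and limma voom 1, and the share of all genes called with these methods is not reported here. The smallest p was that of Asb11, at 71.1 to 114 CPM in EtOH_CON and 85.8 to 142 CPM in EtOH_ATGLi (log2 change 0.32, 95% interval 0.154 to 0.487, adjusted p = 0.137). The next was Rnf122, with medians of 9.67 and 7.48 CPM (log2 change -0.45, interval -0.683 to -0.213, adjusted p = 0.148). For Fbxw7 the log2 change was -0.01 (interval -0.167 to 0.150) and for Rnf150 0.11 (interval -0.0481 to 0.275).

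**Figure D5:**
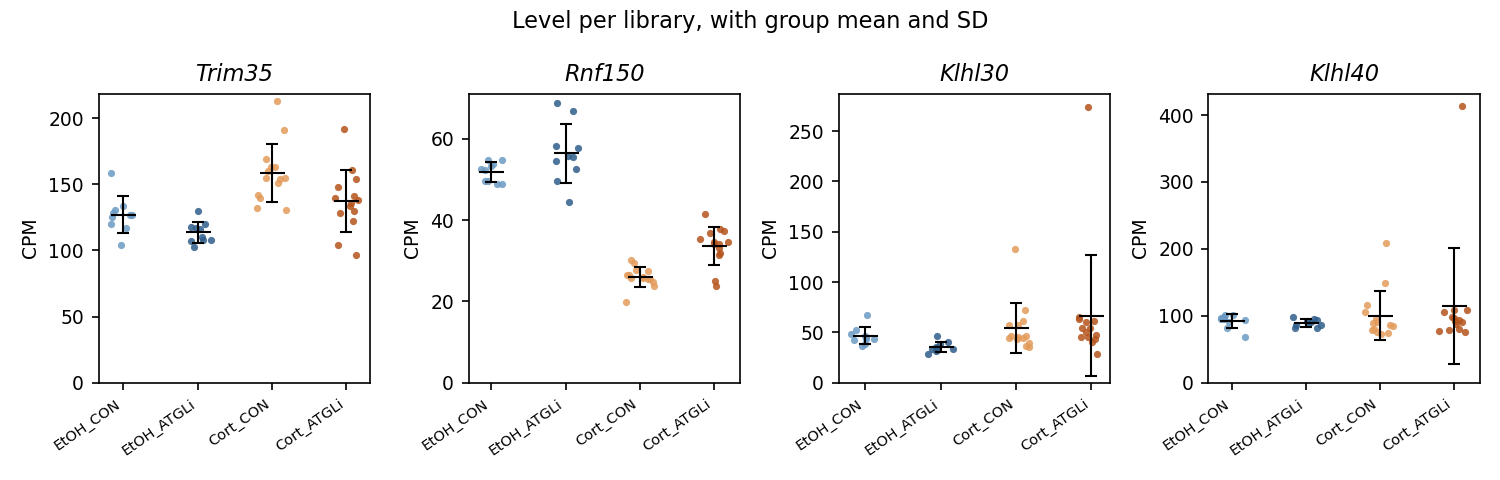
CPM (y axis, from 0) per library of Trim35 and Rnf150, the 2 members that differed between Cort_ATGLi and Cort_CON, and of Klhl30 and Klhl40, with group mean and SD in black. For Klhl30 and Klhl40 the highest point is library p41 of Cort_ATGLi, at 274 and 413 CPM.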

How the data were processed

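The 48 libraries were grouped by the labels. The authors deposited whole-number read counts per gene, untransformed, for 14125 genes; their build was GRCm38, with R 3.6.1 and DESeq2 1.24.0, per the submitters' processing notes. For the aligner, counter, strand setting and annotation nothing was given in the sources used here. A deposited normalized table (a signal per gene) was the counts divided by 1 factor per library, and was not tested. In 47 of 48 libraries every count was even. Names came from the table for 12458 genes and from GENCODE M21 for 1636, and 31 had none.

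All 48 libraries were fitted together with edgeR 4.0.16 (R 4.3.3; filterByExpr, minimum count 10, total 15; TMM; robust quasi-likelihood test), with Benjamini-Hochberg adjustment at 0.05 over 12592 genes. SE is the log2 change over the square root of F, and 95% intervals are 1.96 SE. The members and lists were chosen with earlier results of these data known. Named members were the 8 largest rises and falls per corticosterone comparison with at least 5 CPM, muscle-linked members, and per family the 2 with the highest level and the smallest p; others were named after their values were seen, and some results are not reported here. On simulated counts for Cort_CON against EtOH_CON (12592 genes) the test recovered 34% of 1.25-fold, 90% of 1.5-fold and 100% of 2-fold changes, and 3.57% of calls were false. Only 50 genes were changed at each fold, all with a mean above 5 CPM, so these rates do not cover members at lower levels. The simulated counts were not limited to even values, unlike those of 47 libraries, so the rates may be lower in the data. The false share need not hold in the data, where 38.4% of genes passed. Alternatives were DESeq2 1.42.0, limma 3.58.1 voom, RLE factors, library totals only, other filters, 2-group fits, halved even counts, nondiabetic Cort_CON mice, a replicate block and leaving out libraries. Total counts of 10453888 to 24034481 set the precision of low genes. Reads carry no molecular identifiers named in the labels, so counts are not independent molecules.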

Additional observations from a re-analysis of the deposited data

Results flagged for a closer look

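For each of 44 named members, the highest or lowest library of the 2 vehicle groups was checked for its gap to the next library relative to the group's range, and 10 of 88 groups passed Dixon's 95% critical value for 10 samples. Chance passes about 1 in 20 groups, and the members of 1 library are not independent of each other. Of the 10, 8 were library p01 of EtOH_CON. It was the highest of its group for Fbxo3 (88.5 CPM, next 72.9), Asb8 (136, next 112), Asb16 (85.8, next 67.5), Klhl8 (46.6, next 35.3), Rnf126 (64.4, next 48.6) and Klhl30 (67.1, next 52.1). It was the lowest for Klhl24 (19.3 CPM, next 37.6) and Fbxo40 (117, next 154). The other two were the highest Fbxl22 value of EtOH_ATGLi, 4.27 CPM in p12 (next 2.49), and the lowest Klhl23 value of EtOH_CON, 14.7 CPM in p12 (next 18.5). Groups of 14 were not checked this way.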

How the results depend on the processing

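Counts of members that passed stayed within 1.5 times the value given, except as follows. In Cort_CON against EtOH_CON, 38 passed with nondiabetic Cort_CON mice alone. In EtOH_ATGLi against EtOH_CON, 2 passed with DESeq2, 1 with limma voom and 1 with only these 2 groups fitted. In Cort_ATGLi against Cort_CON, 4 passed with DESeq2, 6 with library totals only, 1 with only these 2 groups, and 6 without p01 of EtOH_CON and p41 of Cort_ATGLi. Leaving out 1 library at a time gave 54 to 65, 47 to 57, 0 to 0 and 2 to 5 members in the 4 pairwise comparisons and 0 in the interaction, with the 5 reached without p41 of Cort_ATGLi. On atglistatin food the Asb8 call was lost in 10 of 24 such fits (highest adjusted p 0.093), those without p06, p07, p08, p13 or p14 of EtOH_ATGLi or p13, p38, p41, p47 or p48 of Cort_ATGLi. The replicate numbers did not pair samples: correlations of same-numbered libraries' deviations were -0.0596 to 0.155, and 1 of 6 was highest with its own number. A fit of 12 libraries with the replicate block called 17 members in Cort_ATGLi against EtOH_ATGLi, against 18 in the same libraries without it, and 0 in EtOH_ATGLi against EtOH_CON, against 0. Trim8 turned to 0.14 (adjusted p 0.702) under the block, and the cause was not tested. Depth limits members near 1 CPM, about 10 to 24 counts a library. In 47 of the 48 libraries these counts were all even, so they take fewer distinct values than their size implies.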

Other observations

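Library p41 of Cort_ATGLi held the highest value of all 48 libraries for Klhl30 (274 CPM), Klhl40 (413 CPM) and Klhl41 (794 CPM), and the lowest for Asb10 (21.8 CPM) and Asb14 (27.4 CPM). Library p45 of Cort_CON was second for Klhl30 (133 CPM) and Klhl40 (208 CPM), the highest for Klhl24 (75.4 CPM) and the second lowest for Asb10 (33.5 CPM) and Asb14 (39.9 CPM). These were picked after the values were seen. Trim72, known for repair of the muscle membrane, had a mean of only 0.151 to 0.239 CPM in the 4 groups, and the fibre markers summed to at least 81700 CPM in every library.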
